A study of Mus musculus with 6 samples.

Results

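The genes described here are those that the deposited table assigns to the calcium signaling pathway, without Plcg1, the 4 calcineurin subunit genes Ppp3ca, Ppp3cb, Ppp3cc and Ppp3r1, and the solute carriers. The rule kept 344 of the 22322 genes of the table, from a pathway of 355 genes. The name of the pathway covers only part of them. By the orthology identifiers in the table, 163 of the 344 are antigen receptor gene segments (121 immunoglobulin heavy chain and 42 T cell receptor genes), and the other 181 are the channels, pumps, receptors, kinases and enzymes that the name leads one to look for. Both kinds are described, and their counts are given separately where they differ.

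RNA was sequenced from double-positive (DP) thymocytes, the CD4+CD8+ stage at which T cell precursors test a newly made receptor, sorted by flow cytometry from untreated mice aged 4 to 7 weeks on the C57BL/6 background. The 3 control libraries carry the label WT (Paxbp1fl/fl), and the 3 libraries labelled cKO come from Paxbp1fl/fl Lckcre animals, in which Cre driven by the Lck promoter removes exon 8 of Paxbp1 in T lineage cells from an early thymic stage. Controls and cKO mice were littermates, and all 6 libraries share the floxed allele. The comparison asks which transcripts differ in DP thymocytes that lack Paxbp1. The paper reports, from qPCR and reverse transcription PCR of sorted cells, that deletion was complete by the immature single-positive stage, which precedes DP. It also reports efficient loss of Paxbp1 protein in sorted DP cells by western blot. In the data used here, the counts per gene do not separate exon 8. Paxbp1 itself stood at 40.1, 16.3 and 15.5 CPM (counts scaled to the same library total) in control libraries 1, 2 and 3 and at 38.8, 47.1 and 49.6 CPM in cKO libraries 1, 2 and 3 (log2 fold change 0.92, edgeR adjusted p = 0.0977), so these counts do not check the genotype labels and every direction below is that of the libraries as labelled.

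In thymocytes the T cell receptor activates phospholipase C, whose product inositol trisphosphate opens calcium channels in the endoplasmic reticulum (ER). When the ER store empties, the sensors STIM1 and STIM2 open ORAI channels in the plasma membrane, and the calcium that enters acts through calmodulin on the phosphatase calcineurin and on calmodulin-dependent kinases. SERCA pumps return calcium to the ER and PMCA pumps push it out of the cell. The strength and pattern of this signal is part of what decides whether a DP cell survives selection.

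Among the tested genes of the pathway, the store-operated channel gene Orai1 was 3.09-fold higher in cKO, whereas its paralog Orai2, the pump gene Atp2a3 (SERCA3), the ATP-gated channel gene P2rx1, the kinase genes Camk4, Prkacb and Phka2, the adenylyl cyclase gene Adcy7, the T cell receptor constant genes Trac and Trbc2 and the variable segment Trav6d-3 were lower. Trav6d-3 shares nearly all of its sequence with Trav6-3, and the summed counts of that pair overlapped between groups, so its call is uncertain. Of the 344 genes, 140 had no count in any library, 92 had counts too low to test (at most 77 reads over the 6 libraries) and 112 were tested. Under edgeR's quasi-likelihood test with an adjusted p below 0.05, 11 of the 112 were called (9.82%), against 10.4% of all 11488 tested genes. The 1 called higher stands against 4.47% of all genes called higher, and the 10 called lower against 5.89% called lower. With a log2 change beyond 1 required as well, Orai1 remained as the 1 higher gene (background 1.53%) and Phka2 and the uncertain Trav6d-3 as the 2 lower (background 1.23%). The share of the pathway's genes that was called was therefore near that of all genes. At an unadjusted p below 0.05, edgeR placed 26 of the 112 (4 higher, 22 lower). Over all 11488 tested genes it placed 3204 there (1524 higher, 1680 lower).

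The direction leaned downward. The median log2 fold change was -0.25 over the 112 tested genes (-0.14 without the antigen receptor segments, -0.49 within them) and -0.002 over all tested genes. The control and cKO libraries did not overlap for 40 of the 112 (8 higher, 32 lower), or 35.7%, against 33% of all genes (1809 higher, 1987 lower). The 40 are 8 higher and 18 lower among the genes that are not antigen receptor segments, and 0 higher and 14 lower among the segments, where identical copies count more than once. The counts of calls changed most without cKO library 3, where edgeR called 0 genes of the pathway higher and 0 lower, with 2 and 16 at an unadjusted p below 0.05, and over all genes the calls went from 514 higher and 677 lower to 42 and 78. The size of the differences moved less: without that library the log2 change was 1.49 for Orai1, -0.77 for Atp2a3 and -0.98 for Phka2, and the median over the tested genes was -0.20. Without cKO library 1 the counts were 0 higher and 5 lower (179 and 286 over all genes), and without cKO library 2 they were 1 and 6 (332 and 413). Without control library 1, 2 or 3 they were 3 and 13, 1 and 4, and 1 and 5. Over all genes these 3 fits called 1000 and 1030, 178 and 235, and 285 and 351. DESeq2 called 2 higher and 14 lower, against 943 and 969 over all genes.

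Markers of the cells in the sort moved as well. Of 12 genes that mark DP thymocytes, 5 were lower and 0 higher in cKO, and their summed level ranged from 11593 to 13686 CPM in controls and from 8470 to 9985 CPM in cKO. Of 20 macrophage markers, 14 were tested and 7 were higher, with a summed level of 85.7, 60.1 and 47.0 CPM in controls and 149.9, 115.3 and 162.3 CPM in cKO. Among these, Adgre1 and Cd5l had no count in any control library, and Mertk and Marco had none in any library. Of the 14 tested, 13 had a positive log2 fold change. Csf1r, Axl and Hmox1 gave 0.22, 0.27 and -0.27 and were not called. Of 8 markers of the earlier thymocyte stages, 7 were tested and 3 were higher (Hes1, Il2ra and Dtx1). Kit, Notch3 and Cd44 gave log2 fold changes of -0.93, -0.76 and -0.01 and were not called. The summed level was 167.0 to 197.8 CPM in controls and 256.5 to 276.5 CPM in cKO. Most of it was Notch1, which was not called (log2 fold change 0.25). In bulk RNA, fewer cells of a type and less RNA per cell cannot be told apart, and the part of these cells in the differences below was not tested.

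**Figure D1:**
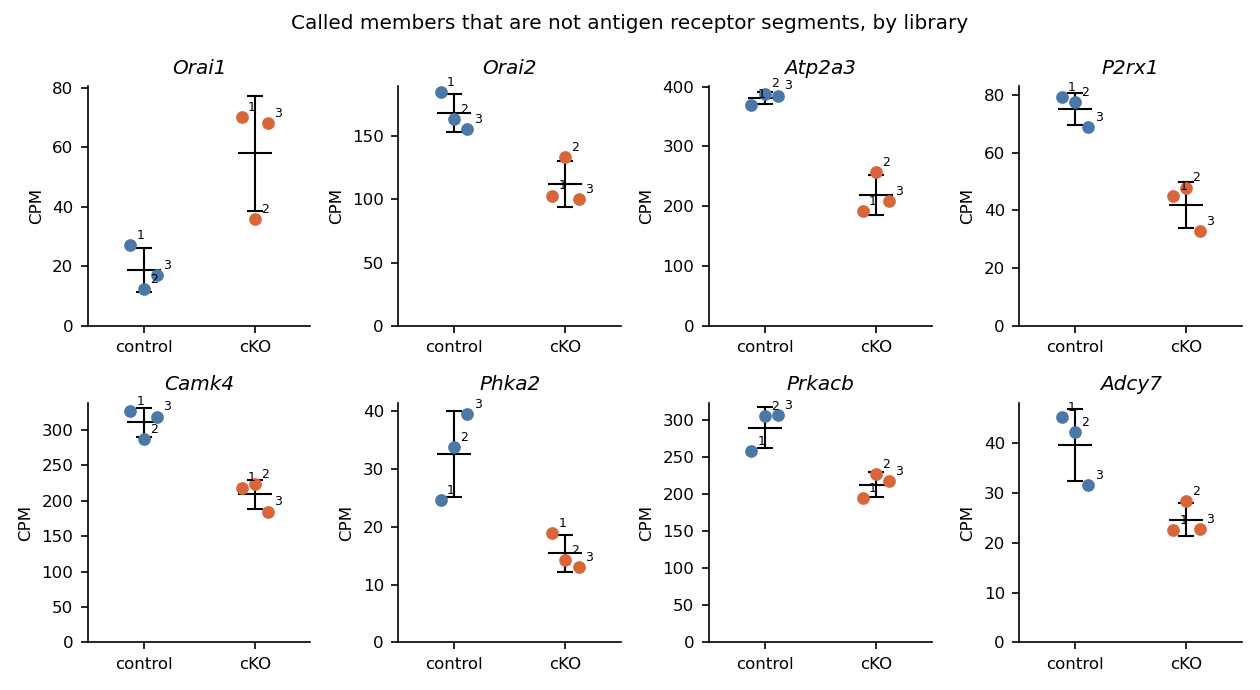
Level in CPM (y axis, from 0) of the 8 called genes that are not antigen receptor segments, with control (blue) and cKO (orange) libraries as numbered points and the mean ± SD of 3 libraries as black bars. The groups do not overlap in any of the 8 panels, and Orai1 is the one in which the cKO libraries lie above.

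To show what lies in front of the genes that moved in opposite directions, and of the pair of neighbouring genes that fell together, the 250 bases before the RefSeq start site of each are given 5′ to 3′ on the gene's strand (assembly GRCm38.p6). They are Orai1 at chr5:123014824-123015073 (plus strand), Orai2 at chr5:136170657-136170906 (minus), Atp2a3 at chr11:72960919-72961168 (plus) and P2rx1 at chr11:72998895-72999144 (plus). Capitals mark, on either strand, the GC box GGGCGG, the CCAAT box CCAAT, the E-box CACGTG and GGAAAA. The last is a form of the site bound by NFAT factors.
Orai1: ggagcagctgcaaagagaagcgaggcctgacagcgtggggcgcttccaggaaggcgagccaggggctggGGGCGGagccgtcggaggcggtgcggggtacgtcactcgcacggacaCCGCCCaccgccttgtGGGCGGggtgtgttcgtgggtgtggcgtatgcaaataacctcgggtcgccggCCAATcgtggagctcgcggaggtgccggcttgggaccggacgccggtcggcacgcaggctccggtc
Orai2: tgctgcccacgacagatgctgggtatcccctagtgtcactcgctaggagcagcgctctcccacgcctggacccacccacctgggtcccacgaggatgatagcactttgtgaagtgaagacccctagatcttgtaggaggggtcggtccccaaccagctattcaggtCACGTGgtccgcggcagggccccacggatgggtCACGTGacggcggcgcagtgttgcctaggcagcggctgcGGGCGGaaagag
Atp2a3: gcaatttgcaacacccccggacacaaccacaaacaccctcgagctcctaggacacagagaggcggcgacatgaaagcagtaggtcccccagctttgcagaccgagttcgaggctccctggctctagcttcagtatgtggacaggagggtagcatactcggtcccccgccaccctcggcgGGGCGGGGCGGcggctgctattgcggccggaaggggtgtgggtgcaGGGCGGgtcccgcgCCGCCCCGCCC
P2rx1: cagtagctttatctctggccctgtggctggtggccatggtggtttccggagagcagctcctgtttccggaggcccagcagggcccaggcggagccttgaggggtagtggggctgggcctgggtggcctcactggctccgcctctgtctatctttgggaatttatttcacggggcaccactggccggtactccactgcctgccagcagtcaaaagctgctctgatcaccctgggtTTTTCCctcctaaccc
The GC box was found 3 times before Orai1, 1 time before Orai2 and 5 times before Atp2a3 (where 2 pairs share a letter), and not before P2rx1. The Orai1 window also holds 1 CCAAT box, and the Orai2 window holds 2 E-boxes. The letters GGAAAA occur 1 time before P2rx1 and not in the other windows. Shorter or variant NFAT sites, such as GGAAA, were neither marked nor counted. Over all 32851 RefSeq windows of this length, 32.7% hold a GC box, 33.8% a CCAAT box, 6.02% an E-box and 20.4% the letters GGAAAA. The Orai1 window has 30 CpG dinucleotides, Atp2a3 has 20, Orai2 has 17 and P2rx1 has 6, against a median of 6 over all windows. No match of the TATA box letters TATAAA or of TGACGTCA, the cyclic AMP response element, was found in any of the 4 windows. By the GENCODE M21 annotation, Orai2 reaches to 136170713 and P2rx1 starts at 72999103, so the ends of their windows lie inside those genes. The Orai2 GC box, the E-box nearest its RefSeq start and the P2rx1 match of GGAAAA fall in those ends. The letters alone describe these windows and show no binding.

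Store-operated entry held the 1 gene of the pathway that edgeR called higher with all 6 libraries. Of the 17 genes for store-operated entry and ER release, 10 were tested, 1 was higher and 1 was lower. Orai1, which encodes the pore subunit of the calcium release-activated channel, stood at 27.0, 12.3 and 17.0 CPM in controls and 70.1, 35.8 and 68.1 CPM in cKO. Every cKO library was above every control library, although cKO library 2 lay closer to the controls than the other cKO libraries. On the log2 scale the difference was 1.63 ± 0.32 (SE, n = 3 per group, edgeR adjusted p = 0.0128). The call was lost without cKO library 1 (adjusted p = 0.0576) or cKO library 3 (0.0732), and the log2 change stayed between 1.40 and 1.98 over the 6 fits that each left out 1 library. The summed macrophage markers given above were highest in the same cKO libraries 1 and 3, and within controls both Orai1 and that sum were highest in library 1. Apoe, which was not called, made up much of the sum (71.9, 46.2 and 66.6 CPM in cKO libraries 1, 2 and 3). Of the called markers, C1qc, Vcam1, Adgre1 and Cd68 were lowest in cKO library 2. The called C1qb, Slc40a1 and Cd5l were higher in cKO library 2 than in cKO library 1. The part of macrophages in the Orai1 difference was not tested.

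Orai2 encodes a related channel subunit that assembles with ORAI1 and lowers the current. It stood at 184.8, 163.5 and 155.6 CPM in controls and 102.9, 133.1 and 100.2 CPM in cKO. The groups did not overlap, and the library with the least Orai1 among the cKO samples was the one with the most Orai2. Its log2 fold change of -0.58 ± 0.14 passed the test (edgeR adjusted p = 0.0291), and the call was lost without control library 2 (adjusted p = 0.0805) or 3 (0.0505) and without cKO library 1 (0.11) or 3 (0.137). The third gene, Orai3, was at 1.09 to 4.57 CPM in controls and 3.24 to 5.42 CPM in cKO and was not called (adjusted p = 0.739).

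Set side by side per transcript length, the summed level of the family changed little while its make-up did. The sum of the 3 genes was 60.6 ± 8.04 FPKM (fragments scaled by gene length and library total, SD, n = 3) in controls and 65.6 ± 3.80 in cKO, with overlapping libraries. Orai1 made up 21.2, 13.0 and 17.1% of it in controls and 56.7, 34.1 and 56.1% in cKO. Orai2 made up 80.1 ± 2.55% in controls and 47.9 ± 11.8% in cKO. Neither share overlapped between the groups, where an exact permutation test of 3 against 3 libraries cannot give a p below 0.1.

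The sensors and release channels showed smaller differences that did not pass the test. Stim1, the main ER calcium sensor, was at 116.6 to 124.9 CPM in controls and 91.2 to 111.2 CPM in cKO (log2 fold change -0.22 ± 0.12, edgeR adjusted p = 0.277). Stim2, the sensor of smaller store losses, gave -0.25 ± 0.15 (adjusted p = 0.311). The inositol trisphosphate receptor genes Itpr1, Itpr2 and Itpr3 gave 0.31, -0.14 and -0.35, with adjusted p of 0.335, 0.506 and 0.341. Itpr2 was the most abundant of the 3 at 70.2 ± 4.37% of their summed FPKM in controls and 64.0 ± 4.80% in cKO, and the shares overlapped. Asph, which encodes aspartate beta-hydroxylase and the ER protein junctin, and Pln, which encodes the SERCA inhibitor phospholamban, stayed below 4 CPM in every library. Of the exonic length of Pln, 64.7% lies under genes of the opposite strand. No source used here says whether reads were counted by strand.

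**Figure D2:**
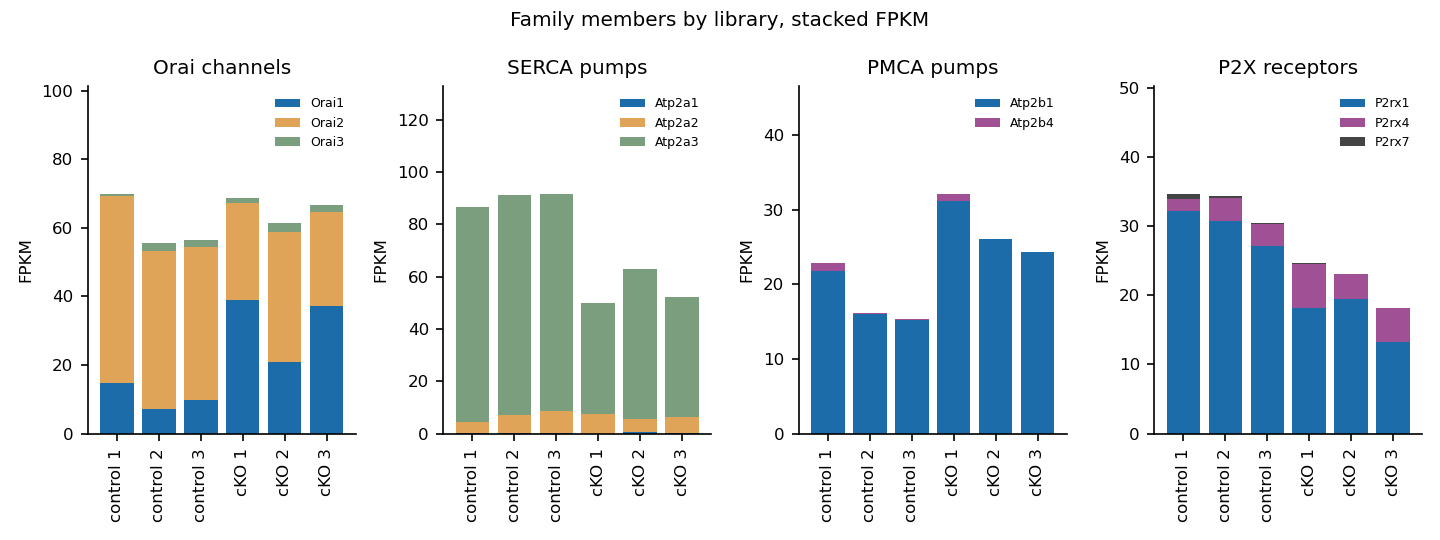
FPKM per library, stacked by gene, for the ORAI channels, SERCA pumps, PMCA pumps and P2X receptors, with genes under 0.3 FPKM in every library left out. The height of the ORAI bars overlaps between groups while the Orai1 part grows, and the SERCA and P2X bars are lower in all 3 cKO libraries.

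Among the pumps, 7 genes belong to the pathway, 4 were tested and 1 was lower. Atp2a3 encodes SERCA3, the SERCA isoform typical of blood cells. Its level was 370.1, 388.1 and 385.1 CPM in controls and 191.7, 256.9 and 208.8 CPM in cKO. The groups lay far apart, with controls within a narrow band. The fitted log2 change was -0.80 ± 0.13 (edgeR adjusted p = 0.00736, the lowest among the 112 genes), and leaving out cKO library 3 alone ended the call (adjusted p = 0.0543). Atp2a2, which encodes the widely expressed SERCA2, gave -0.04 ± 0.25 (adjusted p = 0.95) with overlapping libraries. Because Atp2a3 made up 92.6 ± 2.25% of the SERCA transcripts per length in controls and 87.9 ± 2.97% in cKO, the summed SERCA level was 89.7 ± 2.85 FPKM in controls and 55.0 ± 6.92 FPKM in cKO.

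The 2 tested plasma membrane pump genes lay in opposite directions, and edgeR called neither. Atp2b1, which encodes PMCA1, was at 40.1, 33.2 and 30.2 CPM in controls and 58.8, 45.4 and 44.8 CPM in cKO. Without overlap between groups, this gave a log2 fold change of 0.53 ± 0.17 and an edgeR adjusted p of 0.0773, while DESeq2 gave an adjusted p of 0.0356. Summed over the PMCA genes, the level was 18.1 ± 4.14 FPKM in controls and 27.6 ± 4.15 FPKM in cKO. Atp2b4 was near 1 CPM in controls and under 0.5 CPM in cKO (log2 fold change -1.68, adjusted p = 0.179).

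All 7 genes for mitochondrial and lysosomal calcium channels were tested and edgeR called 0, with 2 at an unadjusted p below 0.05. Over all genes, 3204 of 11488 were at that level. DESeq2 called 1, Tpcn1, a lysosomal two-pore channel gene, which was at 53.3, 51.2 and 45.5 CPM in controls and 38.3, 35.7 and 33.8 CPM in cKO (log2 fold change -0.48 ± 0.14, edgeR adjusted p = 0.0569). Mcu, the pore of the mitochondrial uniporter, was at 25.6 to 28.9 CPM in controls and 15.6 to 23.2 CPM in cKO (-0.47 ± 0.19, adjusted p = 0.133). Neither gene overlapped between groups. The outer membrane channel genes Vdac1, Vdac2 and Vdac3 gave -0.14, -0.04 and 0.12, Ppif (cyclophilin D) gave 0.08 and Tpcn2 gave -0.45, with adjusted p from 0.386 to 0.864. The sum of the 3 Vdac genes was 276.1 ± 26.1 FPKM in controls and 285.8 ± 4.09 FPKM in cKO.

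Most voltage-gated and ligand-gated channel genes were hardly transcribed: of 22, 5 had no count, 11 had too few and 6 were tested. P2rx1, which encodes an ATP-gated cation channel, stood at 79.2, 77.5 and 68.9 CPM in controls and 44.9, 47.9 and 32.9 CPM in cKO. No cKO library reached the lowest control. On the log2 scale P2rx1 changed by -0.84 ± 0.16 (edgeR adjusted p = 0.0126), and the call was lost only without cKO library 3 (0.0656) among the 6 fits. Its paralog P2rx4 was at 3.22, 5.50 and 5.67 CPM in controls and 11.0, 6.25 and 8.86 CPM in cKO, without overlap (0.86 ± 0.34, adjusted p = 0.128). P2rx7, whose channel responds to high extracellular ATP, was below 2 CPM in all libraries. P2rx1 accounted for 90.5 ± 1.95% of the P2X transcripts per length in controls and 76.6 ± 6.39% in cKO. The summed P2X level was 33.2 ± 2.40 FPKM in controls and 22.1 ± 3.31 FPKM in cKO. The voltage-gated channel gene Cacna1e was at 17.5 to 40.4 CPM in controls and 11.0 to 22.4 CPM in cKO (adjusted p = 0.157).

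Several of these genes are neighbours. In the GENCODE M21 annotation of GRCm38, Atp2a3 (chromosome 11, 72961169 to 72993044) and P2rx1 (72999103 to 73015200) lie on the plus strand with 6058 bases between them, and Camkk1, which encodes a kinase that activates CaMKIV and is outside the list chosen here, starts 3807 bases further on. Camkk1 was at 141.1, 117.1 and 143.4 CPM in controls and 78.6, 87.8 and 76.0 CPM in cKO (log2 fold change -0.73 ± 0.13, edgeR adjusted p = 0.00931, and 0.066 without cKO library 3). Of 13 tested genes within 200 kb on either side of the 3, these 3 adjacent genes were lower and the other 10 were not called. The nearest tested genes were Zzef1 on one side (-0.11, adjusted p = 0.715) and Ncbp3 on the other (0.05, adjusted p = 0.815). Further out, Tax1bp3 (-0.37, adjusted p = 0.108), Cyb5d2 (-0.98, adjusted p = 0.115) and Itgae (-1.03, adjusted p = 0.41) also lay lower without overlap. Cyb5d2 and Itgae were at 6.79 CPM or less. No uncalled gene of the stretch lay higher without overlap.

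Orai1, the P2X genes P2rx4 and P2rx7 and Camkk2, a paralog of Camkk1, lie within 386.5 kb of each other on chromosome 5. Of 14 tested genes in that stretch and 200 kb on either side, 2 were higher and 0 lower. These were Orai1 and the nearest tested gene before it, Kdm2b, which encodes a histone demethylase and gave 0.65 ± 0.15 (edgeR adjusted p = 0.0265, lost without control library 2, cKO library 1 or cKO library 3, up to 0.131). Of the uncalled genes, P2rx4, Camkk2 (0.25, adjusted p = 0.399) and Anapc7 (0.38, adjusted p = 0.128) lay higher without overlap. Tmem120b (-0.17, adjusted p = 0.373) lay lower without overlap. Both stretches were looked at after the values of their genes were seen, and genes that share a stretch are not independent of each other.

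**Figure D3:**
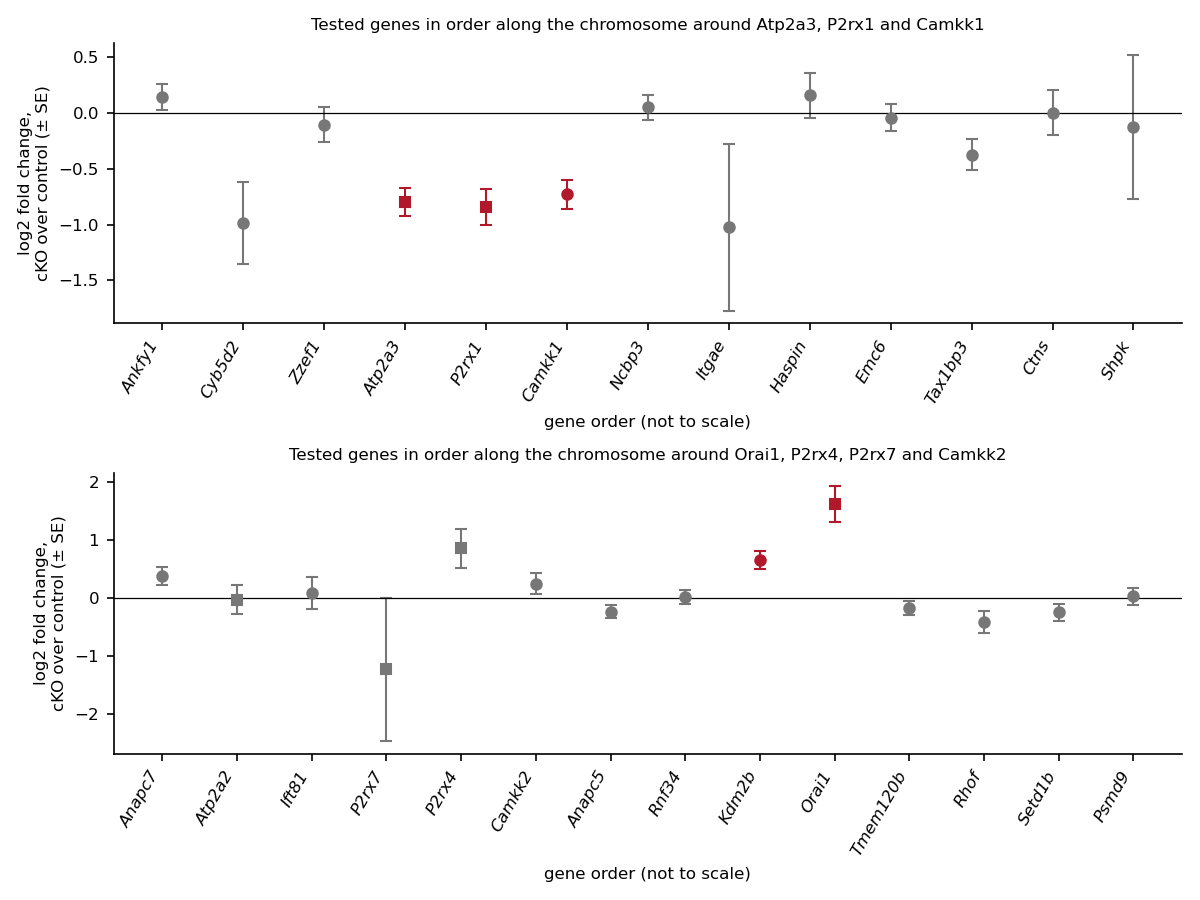
Log2 fold change of cKO over control (y axis, ± SE) for the tested genes in chromosomal order around Atp2a3 and around Orai1, with genes of the pathway as squares, other genes as circles and called genes in red. Atp2a3, P2rx1 and Camkk1 sit side by side between -0.73 and -0.84, and Orai1 stands above its neighbours at 1.63.

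Of the 26 genes for enzymes that make or break second messengers, 13 were tested and 1 was lower. Adcy7, which encodes an adenylyl cyclase found in blood cells, was at 45.1, 42.2 and 31.5 CPM in controls and 22.6, 28.4 and 22.8 CPM in cKO. The groups were separated by a small gap, and the log2 change was -0.69 ± 0.18 (edgeR adjusted p = 0.042). The call held without control library 3 and was lost without any of the 5 others (adjusted p from 0.0527 to 0.16). Scaling by plain library totals in place of TMM ended it too (adjusted p = 0.0504). Adcy3 was at 23.3 to 25.7 CPM in controls and 15.5 to 17.5 CPM in cKO (-0.56 ± 0.17, adjusted p = 0.0591). The sum of the adenylyl cyclase genes was 13.6 ± 1.97 FPKM in controls and 9.07 ± 0.348 FPKM in cKO. Plcb2, a phospholipase C gene coupled to G proteins, gave -0.32 (adjusted p = 0.175). The inositol trisphosphate kinase gene Itpkb, needed for DP cells to mature, gave 0.14 (adjusted p = 0.653). Itpka and Plcg2 were at 1.30 to 5.82 CPM, with adjusted p of 0.973 and 0.966.

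Calmodulin and the enzymes that calcium acts on made up 34 genes, of which 19 were tested, 3 were lower and 0 were higher. At an unadjusted p below 0.05, 0 of the 19 were higher and 5 lower. Over all 11488 tested genes, 1524 were higher and 1680 lower at that level. DESeq2 and limma-voom gave the same 0 higher. Camk4 encodes CaMKIV, a nuclear kinase abundant in thymocytes. It stood at 326.3, 287.1 and 318.7 CPM in controls and 218.5, 223.4 and 184.9 CPM in cKO. All cKO libraries lay below all controls, at a log2 change of -0.57 ± 0.12 (edgeR adjusted p = 0.0165), and the call was lost without control library 3 (adjusted p = 0.0505), cKO library 1 (0.0534) or cKO library 3 (0.0944). Camk4 made up most of the transcripts of its kinase family per length, whose sum was 186.4 ± 14.6 FPKM in controls and 142.6 ± 8.48 FPKM in cKO.

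Phka2 encodes a regulatory alpha subunit of phosphorylase kinase, the calcium-dependent enzyme that starts glycogen breakdown. Its level was 24.6, 33.8 and 39.4 CPM in controls and 18.9, 14.2 and 13.0 CPM in cKO, again without overlap. The log2 fold change of -1.08 ± 0.22 (edgeR adjusted p = 0.0166) was the largest among called genes that are not antigen receptor segments apart from Orai1, and the call held only without control library 1 or cKO library 1, with adjusted p from 0.0529 to 0.0892 without each of the 4 others. Phkb and Phkg2, the genes of 2 other subunits, gave -0.27 and 0.11 (adjusted p of 0.353 and 0.718).

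Prkacb, a catalytic subunit gene of protein kinase A, was at 257.2, 304.8 and 305.8 CPM in controls and 194.1, 226.7 and 217.0 CPM in cKO. The groups did not overlap, and a log2 change of -0.44 ± 0.12 passed the test (edgeR adjusted p = 0.0419), a call that held without control library 1 and was lost without any of the 5 others (adjusted p from 0.0757 to 0.145). The other catalytic gene, Prkaca, gave -0.01 ± 0.17 (adjusted p = 0.986). Camk2a gave -0.71 (adjusted p = 0.0878) and Prkcb, a protein kinase C gene, gave -0.26 (adjusted p = 0.156), both without overlap. Over the 19 tested genes for calmodulin and the enzymes that calcium acts on, the groups did not overlap for 8, 3 higher and 5 lower in cKO. That is 42.1%, against 33% of all tested genes. The 3 higher were not called, and the highest log2 change among the 19 was 1.09. Camk2d, Camk2g and Prkca gave -0.05, -0.19 and 0.23, with adjusted p from 0.369 to 0.881.

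Among the calmodulin genes, Calm2 was at 1324 to 1382 CPM in controls and 1411 to 1583 CPM in cKO. The groups lay apart by a small margin and the gene was not called (log2 fold change 0.14 ± 0.10, edgeR adjusted p = 0.387). Calm3 was at 99.1 to 148.9 CPM in controls and 112.9 to 120.7 CPM in cKO and gave -0.17 ± 0.16 (adjusted p = 0.518).

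**Figure D4:**
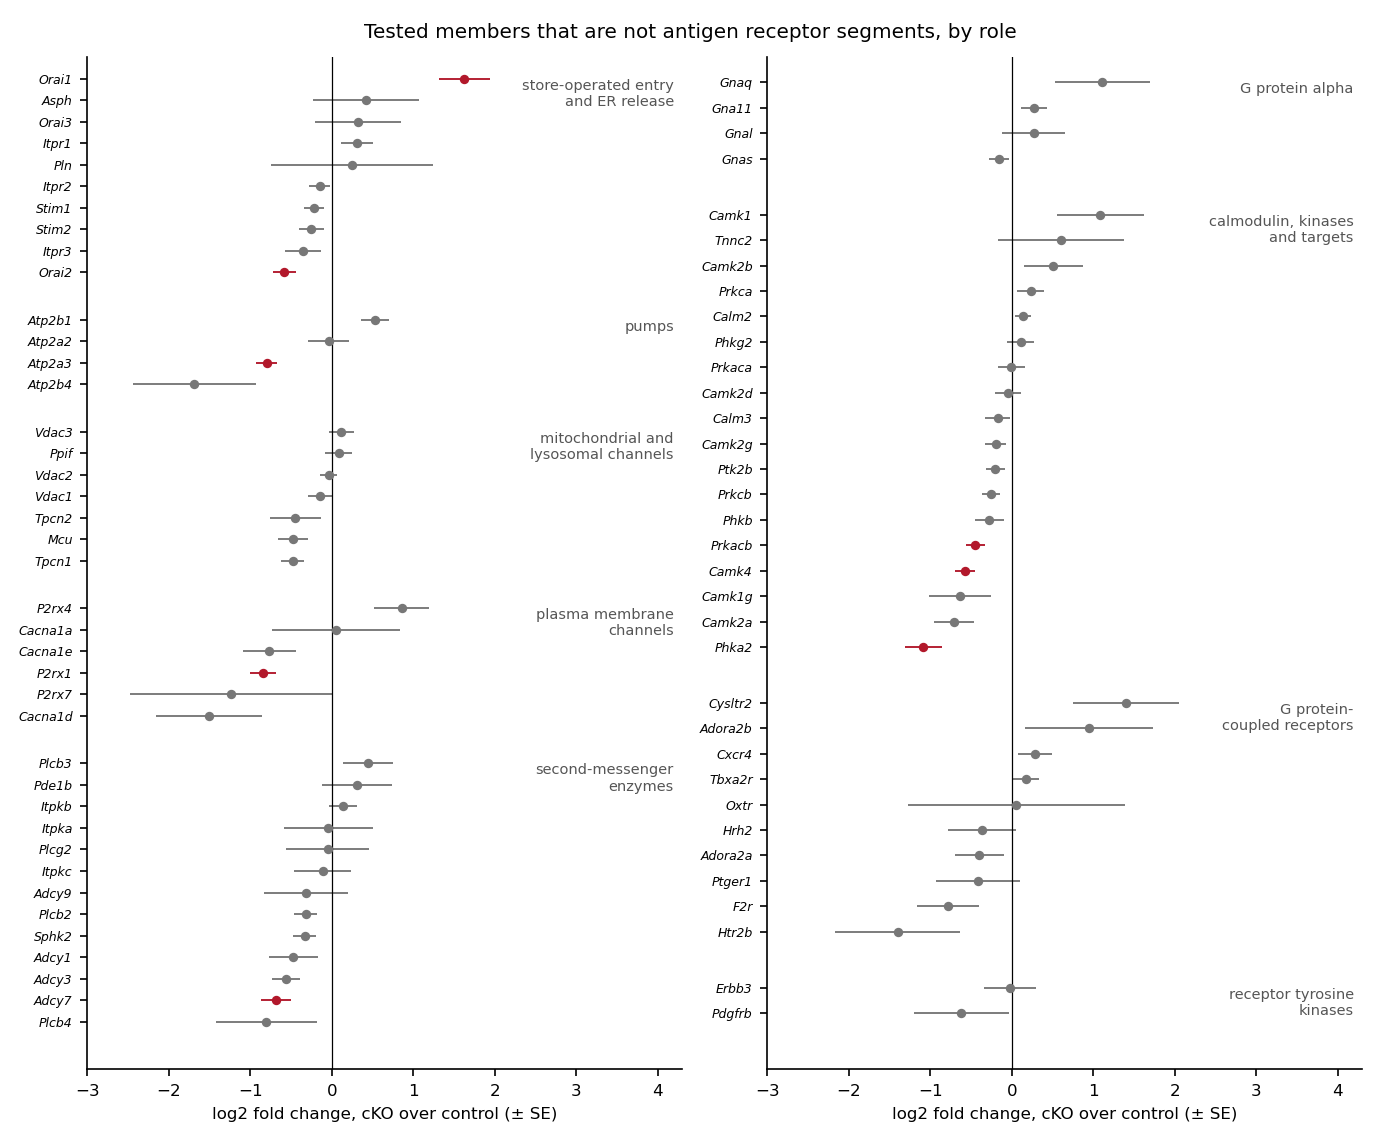
Log2 fold change of cKO over control (x axis, ± SE) for the tested genes that are not antigen receptor segments (2 of the 76 are not drawn), grouped by role, with called genes in red. Orai1 at 1.63 is the only called gene right of zero, and 7 called genes lie to the left.

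Receptors upstream of these enzymes showed no call with all 6 libraries. Of 55 genes for G protein-coupled receptors, 11 were tested and edgeR, DESeq2 and limma-voom called 0. At an unadjusted p below 0.05 there was 1 under edgeR. Without control library 1, edgeR called 1 of 13 tested receptor genes higher, where it called 1000 higher over all genes. Cxcr4, the chemokine receptor that works with the pre-T cell receptor, gave 0.29 (adjusted p = 0.415). Adora2a, an adenosine receptor that raises cyclic AMP, gave -0.40 (adjusted p = 0.43). For 4 tested G protein alpha genes and 2 tested receptor tyrosine kinase genes, all 3 tools called 0, with 0 at an unadjusted p below 0.05 under edgeR. Gnas, the stimulatory alpha subunit, was the sixth most abundant gene of the pathway at 334.4 FPKM over all libraries and gave -0.16 (adjusted p = 0.454).

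Constant region genes of the antigen receptors were among the most abundant genes of the pathway per length, while 86 of the 163 antigen receptor genes had no count. Trbc2 averaged 4783 FPKM over the 6 libraries, Trbc1 2745, Ighm 628.9 and Trac 574.7, beside 1199 for Calm2 and 111.2 for Camk4. Trac, the constant region of the alpha chain, was at 617.6, 528.7 and 508.1 CPM in controls and 366.4, 364.3 and 306.1 CPM in cKO. The groups did not overlap, the log2 change was -0.67 ± 0.12 (edgeR adjusted p = 0.0103), and the call was lost only without cKO library 3 (0.0704) among the 6 fits. Trbc2, a constant region of the beta chain, was at 3329, 4084 and 3859 CPM in controls and 2893, 2961 and 2765 CPM in cKO, without overlap (-0.39 ± 0.11, adjusted p = 0.045), and held its call only without control library 1 (adjusted p from 0.0975 to 0.169 without each of the 5 others). With RLE factors in place of TMM the adjusted p was 0.0503. Trbc1 gave -0.35 ± 0.11 (adjusted p = 0.0638). The 2 beta constant genes are close copies, so reads may be split between them.

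Variable alpha segments lay below zero more often than above. Of 33 Trav genes, 24 were tested, 21 of them had a negative log2 fold change and 1 was called, with a median of -0.68. The one call was Trav6d-3, with 25, 25 and 19 counts in controls and 0 in each cKO library, which is at least 22.1-fold lower against a floor of 3 counts over the cKO group (edgeR adjusted p = 0.0149, and 0.0614 without control library 2 or 0.0691 without cKO library 3). This segment cannot be read alone. Of the 318 windows of 30 bases in its transcript, 315 also occur in Trav6-3, which had 8, 14 and 34 counts in controls and 54, 13 and 16 in cKO. Added together, the pair had 33, 39 and 53 counts in controls and 54, 13 and 16 in cKO, and the groups overlapped. A further 7 pairs of Trav genes had equal counts in every library, and in 6 of these pairs the GENCODE transcripts are identical over their whole length, so their values are 1 measurement each and the count of 24 holds fewer independent segments.

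Of the 121 immunoglobulin heavy chain genes, 86 had no count and 4 were tested, with 0 called by edgeR or limma-voom, 1 at an unadjusted p below 0.05 and 1 called by DESeq2, Ighm. Ighm, the constant region of the mu chain, stood at 902.8, 1253 and 1202 CPM in controls and 853.7, 879.3 and 839.9 CPM in cKO (log2 fold change -0.38 ± 0.13, edgeR adjusted p = 0.0887). The groups did not overlap. Beside it, the B cell genes Cd79a, Ms4a1 and Pax5 were at no more than 1.05 CPM in any library. Cd79b was at 40.2 to 45.0 CPM in controls and 23.3 to 28.2 CPM in cKO and was lower (-0.70 ± 0.15, adjusted p = 0.0194, up to 0.0781 when single libraries were left out). The remaining tested heavy chain genes, Ighd, Ighg2b and Igha, stayed below 8 CPM.

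**Figure D5:**
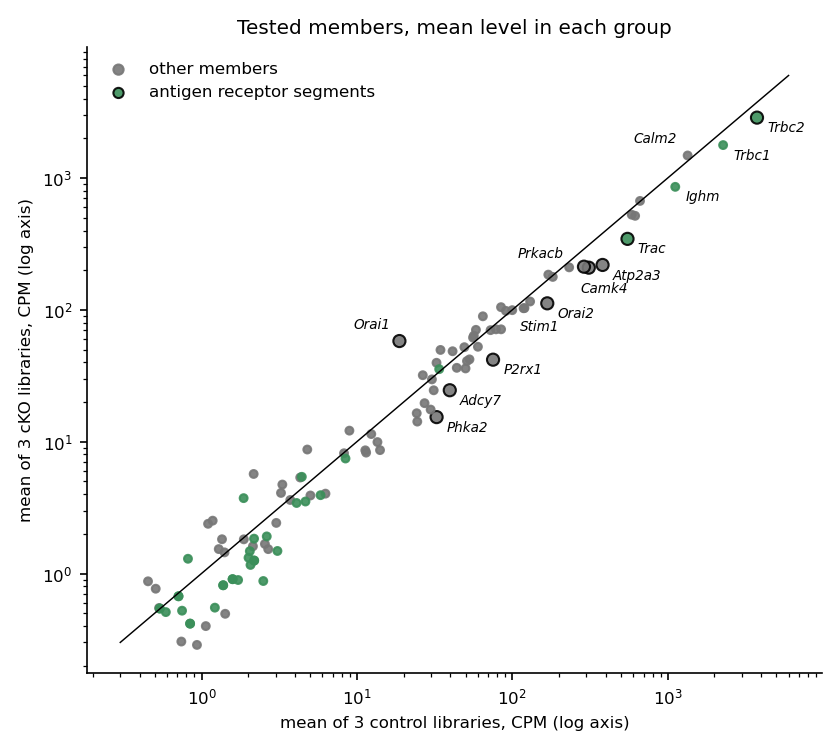
Mean CPM of the 3 control (x axis) and 3 cKO libraries (y axis), both on log axes, for 111 tested genes of the pathway, without Trav6d-3, which is at 0 in cKO. Larger points with a black edge are called genes, and the line marks equal levels. Orai1 lies above the line, while Trbc2, Trac, Atp2a3 and Camk4 lie below it among the abundant genes.

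Genes that handle calcium but are not in the pathway of this table were read from a list of 30, of which 27 were tested. Of these, 3 were higher and 3 were lower, where 4.47% of all tested genes were called higher and 5.89% lower. The list was chosen with earlier results of these data known, so the counts are no test of it. Higher were the ER chaperone and calcium buffer genes Hspa5 (log2 fold change 0.79 ± 0.17, edgeR adjusted p = 0.0205) and Calr (0.49 ± 0.13, adjusted p = 0.0466), and Stimate, which encodes an ER protein that promotes STIM1 activation (0.83 ± 0.22, adjusted p = 0.039). Lower were Hpcal1, a neuronal calcium sensor gene (-0.91 ± 0.12, adjusted p = 0.00408), Camkk1, and Micu2, which encodes a gatekeeper of the mitochondrial uniporter (-0.73 ± 0.14, adjusted p = 0.0112). Of these 6, Hpcal1 alone kept its call whichever single library was left out (adjusted p at most 0.0406). The NFAT genes, targets of calcineurin, were not assigned to this pathway by the table. Nfatc1, Nfatc2 and Nfatc3 were tested, and edgeR, DESeq2 and limma-voom called 0, with 1 at an unadjusted p below 0.05 (Nfatc3, -0.28 ± 0.12, adjusted p = 0.156).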

How the data were processed

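RNA was measured in 3 control and 3 cKO libraries of sorted DP thymocytes. The authors deposited 1 table with read counts per gene (estimated with RSEM, whole numbers) and FPKM, which scales counts by gene length and library total. The submitters' processing notes name fastp 0.18.0, Bowtie2 2.2.8, HISAT2, StringTie and RSEM. The genome build and strand use were not given in the sources used here. Its columns of group means and of the authors' own comparison were not used; they hold fold changes, p-values and FDR. Library totals ran from 18963775 to 26252248 counts, so 1 count is 0.0388 to 0.0521 CPM.

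All 15349 genes with a count entered edgeR 4.0.16 (R 4.3.3): TMM scaling, filterByExpr (minimum count 10, minimum total 15), the quasi-likelihood test on genotype alone, and Benjamini-Hochberg adjustment over 11488 genes. CPM uses the TMM totals. Alternatives were DESeq2 1.42.0, limma-voom (limma 3.58.1), RLE factors, plain library totals, no filter, a mean of 1 CPM, a replicate block, the whole pathway and leaving out each library. Genes under 3 counts over a group were set to that floor for a bound. The fit was tested on simulated counts. No 2 libraries of the same group agreed within sampling noise. The labels do not say that libraries are separate animals, so p-values measure the spread between these samples, which may be technical.

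Named genes were every called gene, every tested gene for store-operated entry, pumps and organelle channels, the 10 highest by FPKM and a set list known in thymocytes or leukocytes. Genes beyond this rule, such as Adcy3, Camk2a, Cacna1e, Prkaca, Phkb and Kdm2b, were named after their values were seen, and a few genes that the rule or a list names are not reported here. The pathway's genes and all lists were chosen with earlier results of these data known. Dendritic cell, erythroid, neutrophil, mature T cell, epithelial, endothelial and fibroblast, and NK marker lists had 0 calls by edgeR, but many of their genes had too few counts to test. Tested were 3 of 9 dendritic cell, 5 of 6 erythroid, 0 of 6 neutrophil and 4 of 5 mature T cell markers. So were 2 of 7 epithelial, 1 of 7 endothelial and fibroblast, and 1 of 5 NK markers. An unadjusted p below 0.05 was found for 1 mature T cell marker and for the NK marker Tyrobp (log2 fold change 2.23, edgeR adjusted p = 0.057). DESeq2 called 1 NK marker. Positions are from GENCODE M21 by Ensembl ID (344 of 344 matched), and sequences from RefSeq.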

Additional observations from a re-analysis of the deposited data

How the results depend on the processing

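Under the alternatives that kept all 6 libraries, the count of pathway genes called higher was 2 with DESeq2 and 1 otherwise, and the lower count was 9 to 14 (7 without the antigen receptor segments, a setting added after seeing the data). Over all genes these settings called 514 to 943 higher and 602 to 969 lower, the most with DESeq2. Genes past both thresholds and lower were 1 with a mean of 1 CPM and 1 without the segments. The median log2 fold change was -0.19 with DESeq2 and -0.14 without the segments. Leaving out single libraries gave 0 to 3 higher, 0 to 13 lower, 0 to 1 higher and 0 to 2 lower past both thresholds, and a median of -0.39 to -0.20. Over all genes the same fits called 42 to 1000 higher and 78 to 1030 lower. These fits have fewer samples, and the cause was not tested. With all libraries kept, the call of Adcy7 ended under plain library totals and that of Trbc2 under RLE factors.

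The replicate block called 1 higher and 12 lower (570 and 668 over all genes). In their deviations from the group mean, same-numbered libraries correlated at 0.045, 0.038 and -0.030, and differently numbered ones at -0.079 to 0.040. The values show no sign of pairing, but so few libraries per group cannot exclude it. Among the 46 named genes, 9 changed sign, and none of these was called. Plcg2 went to 0.12 with limma-voom and to 0.15 with the replicate block. When single libraries were left out, the log2 fold change ran from -0.46 to 0.43 for Plcg2, -0.047 to 0.21 for Vdac3, -0.086 to 0.65 for Orai3, -0.034 to 0.22 for Ppif, -1.18 to 1.23 for Pln, -0.27 to 0.21 for Atp2a2, -0.0072 to 0.34 for Itpkb, -0.20 to 0.045 for Camk2d and -0.39 to 0.18 for Itpka. No direction is read for these 9. Genes under about 1 CPM rest on few reads.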
